A study of Homo sapiens with 4 samples.

Results

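Trichostatin A (TSA), a broad inhibitor of histone deacetylases, was given to resting SW1353 cells, and the transcripts of the treated cells (Con_TSA) were set against those of vehicle-treated cells (Con). SW1353 is an established human chondrosarcoma line that is used as a stand-in for chondrocytes, the cells of cartilage. The Con_TSA cells received TSA at 250 ng/ml without interleukin-1 (IL-1), and the Con cells received DMSO, the solvent of TSA, also without IL-1. Both groups had spent the preceding night without serum. A second pair of arrays, IL1_TSA and IL1, came from cells given TSA or DMSO from 1 hour before IL-1α, which was then present for 6 hours. This second pair is used below for comparison, in the normalisation and in sorting genes by mean level. The labels give no separate duration of TSA for Con_TSA, while legends in the study state a longer exposure to IL-1 than the labels do. Of 18661 annotated genes on the array, 9677 had at least 1 probe detected on Con_TSA or on Con, and these are the genes described here, while 10128 were detected on any of the 4 arrays. Detection means a detection p-value under 0.01, which ranks the signal of a probe among negative control probes.

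Histone deacetylases (HDACs) remove acetyl groups from lysines of histone tails and of other proteins, and acetylated histones mark promoters and enhancers in use. TSA binds the zinc ion in the active site of the classical HDACs, so that acetylation by the opposing histone acetyltransferases accumulates. Cells given such inhibitors are known to raise some transcripts and lower others, and the cell cycle inhibitor CDKN1A, replication-independent histone genes and metallothioneins are often quoted among those that go up.

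With 1 array in each group, the differences could not be checked against replicates or tested, and no p-value is given. A gene's level is the mean normalised log2 intensity of its detected probes. It is called higher or lower where Con_TSA differed from Con by at least 1.5-fold, the fold used in the study, and a probe was detected on the brighter array. Where the dimmer array did not detect a gene, the fold is a bound, written "at least". The same holds where it detected only some probes of a gene and the gene's mean level lay under the lowest detected level. A log2 difference is always that of the measured levels and is then no bound. The only error that these data hold is the disagreement between different probes of 1 gene. It covers differences between probes on the same arrays. Variation between arrays, RNA preparations or cultures is not covered, and precision is limited by the number of arrays. In RNA from a whole culture, fewer cells making a transcript and less of it per cell cannot be told apart. The median intensity was 86.9 on Con_TSA and 95.3 on Con, and 27.4% of 48784 probes were detected on each.

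The label was checked against marker genes. All 5 mesenchymal markers were detected on both arrays, among them vimentin (VIM), at 15.06 on Con_TSA and 15.05 on Con, and the collagen I chain COL1A2, at 13.04 on Con_TSA and 13.44 on Con. Of 6 chondrocyte markers only SOX9, the transcription factor of the cartilage lineage, and COL11A1 were detected, and the cartilage matrix genes COL2A1, ACAN, COL9A1 and COMP were not. None of 4 epithelial or 5 haematopoietic markers was detected on either array, but fuller lists held detected genes, 3 of 11 epithelial and 6 of 14 haematopoietic. The keratin KRT8 stood at 8.44 on Con_TSA and 8.53 on Con, KRT7 at 7.27 on Con_TSA and 7.01 on Con, and KRT18 at 8.94 on Con_TSA and 9.86 on Con. The actin-bundling protein LCP1, listed for blood cells, was among the brightest genes, at 14.87 on Con_TSA and 15.03 on Con, and the macrophage marker CD68 stood at 11.66 on Con_TSA and 11.96 on Con. Their part in the results was not tested. Of 3 endothelial markers only VWF was detected, at 7.77 on Con_TSA and 7.76 on Con.

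Transcripts differed in both directions and in near-equal numbers. In Con_TSA 1660 genes were higher than in Con, 17.2% of those detected, and 1674 were lower, 17.3%, while 6343 lay within 1.5-fold. At 2-fold the counts were 700 higher and 727 lower, and at 4-fold 102 and 85. The median log2 difference over all genes was -0.01, and 90% of genes lay between -1.20 and 1.19. Of the higher genes 1270 were detected on both arrays and 390 on Con_TSA alone, and of the lower genes 1301 were detected on both and 373 on Con alone.

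**Figure D1:**
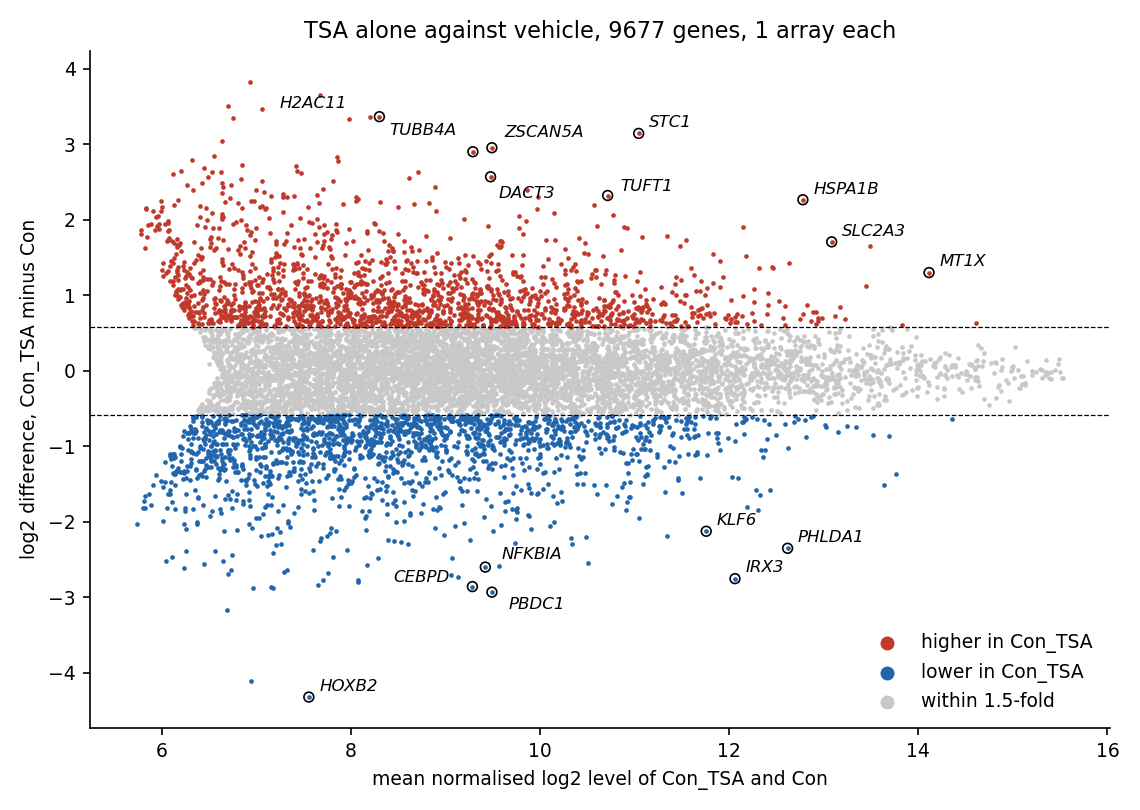
The log2 difference between Con_TSA and Con (vertical axis) is plotted against the mean normalised log2 level of both arrays (horizontal axis) for 9677 genes, with 1660 higher genes in red, 1674 lower genes in blue and dashed lines at 1.5-fold. Called genes lie at all levels, but few of the brightest pass the lines, MT1X, HSPA1B and PHLDA1 among them.

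Calls were most frequent among dim genes. Below a log2 level of 7, here the mean over all 4 arrays, 28.8% of genes were higher and 28.3% lower, against 5.63% and 5.75% above a level of 12. The spread between probes of a gene ran the same way. For genes with exactly 2 probes, the spread of each probe about their mean (the root mean square of its deviation) was 0.33 on the log2 scale below a level of 7 and 0.098 above 12. The values deposited by the authors, which were normalised by another method, give smaller differences for dim genes, and the cause was not tested. In these values all 1660 higher and all 1674 lower genes differed in the same direction, but only 517 of the higher and 400 of the lower genes passed 1.5-fold, which was 0.61% of the calls below a level of 7 and 97.8% of those above 12. The log2 difference in the deposited values is therefore given beside the larger results.

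Different probes of the same gene gave the same answer in most cases. Of 2220 genes with 2 or more probes, 76.1% had all probes on the same side of 0. Among the 323 higher genes with several probes 319 had all of them higher and 211 had all of them past 1.5-fold, and among 322 such lower genes these counts were 318 and 230. The calls use the mean of these same probes, so these counts are in part fixed by the selection and are no independent check. Of 1575 genes within 1.5-fold with 2 or more probes, 66.9% had all probes on the same side of 0. A probe of a gene whose other probe was higher was itself higher in 62.8% of cases, against 14.96% of all probes of these genes, and the corresponding shares for lower were 66.2% and 15.5%. Only 8 genes had probes past 1.5-fold in opposite directions. Most calls have no such check, since 1337 of the higher and 1352 of the lower genes rest on 1 probe.

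**Figure D2:**
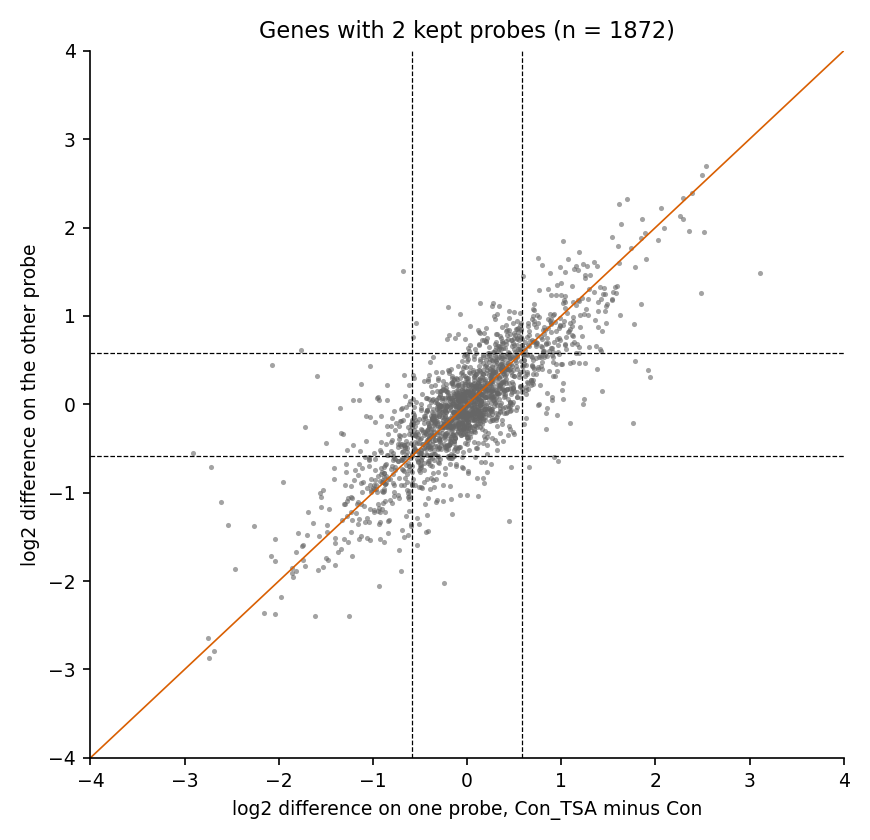
For 1872 genes with exactly 2 probes, the log2 difference between Con_TSA and Con on one probe (horizontal axis) is plotted against that on the other (vertical axis), with dashed lines at 1.5-fold and the line of equality in orange. Points follow the line of equality, and the outer corners at upper left and lower right, where probes pass 1.5-fold in opposite directions, are nearly empty.

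The gene with the largest increase among those detected on both arrays was STC1, which encodes stanniocalcin-1, a secreted glycoprotein with roles in calcium and phosphate handling. STC1 had a log2 level of 12.61 on Con_TSA and 9.47 on Con, 8.84-fold higher, and the deposited values gave 2.62. The brain β-tubulin TUBB4A stood at 10.74 on Con_TSA and 7.84 on Con, 7.47-fold higher with a deposited difference of 1.72. The zinc finger gene ZSCAN5A, at 10.97 on Con_TSA and 8.01 on Con, was 7.75-fold higher. Its neighbour in name and sequence ZSCAN5B was detected on Con_TSA alone, at 9.65 there and 6.31 on Con, at least 8.10-fold higher; whether both probes read separate transcripts was not tested. Of these 4 genes STC1 was the brightest on both arrays.

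Further large increases covered genes of unrelated function. DACT3, a regulator of Wnt signalling, had 10.76 on Con_TSA and 8.19 on Con (5.93-fold higher), and cingulin (CGN), a protein of tight junctions, had 9.89 on Con_TSA and 7.33 on Con (5.88-fold higher). The arginine transporter SLC7A2 was 5.41-fold higher, the inflammasome sensor NLRP1 5.25-fold higher, the interferon-inducible GTPase GBP5 4.94-fold higher and thiopurine methyltransferase TPMT 4.93-fold higher. TUFT1, named for its protein in tooth enamel, was the brightest of these, at 11.88 on Con_TSA and 9.55 on Con, and GBP5 the dimmest on both arrays, at 9.21 on Con_TSA and 6.90 on Con. The brightest gene among the 15 largest increases was HSPA1B, the stress-inducible HSP70, at 13.91 on Con_TSA and 11.65 on Con, 4.81-fold higher, with a deposited difference of 2.27. Among genes with several probes that all passed 1.5-fold, the calcium-binding protein gene CALN1 was detected by both probes on both arrays, with differences of 2.26 and 2.13 on the log2 scale, and was 4.59-fold higher. STARD5, a lipid-binding protein, had 2 probes with differences of 2.54 and 2.69. It was detected on both arrays, but its mean level on Con, 6.16, lay under the lowest detected level, so that it was at least 4.44-fold higher. The 4 probes of PPP4R4, a regulatory subunit of protein phosphatase 4, gave 1.84 to 2.70 (at least 2.35-fold higher).

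The decreases were of like size and included several regulators of transcription. CEBPD, a C/EBP transcription factor of acute inflammation, had a log2 level of 7.86 on Con_TSA and 10.71 on Con, 7.25-fold lower with a deposited difference of -1.63. The Iroquois homeobox gene IRX3, one of the brighter transcription factor genes in Con at 13.44, stood at 10.68 on Con_TSA (6.74-fold lower, deposited difference -2.58). ARNT2, a partner of PAS-domain transcription factors, was at 6.69 on Con_TSA, close to the lowest detected level of 6.63, and at 9.46 on Con (6.85-fold lower). HOXB2 was detected on Con alone, at 5.39 on Con_TSA and 9.72 on Con, and was at least 8.52-fold lower. These 4 genes each rest on 1 probe.

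Decreases outside transcription factors were equally deep. PBDC1 was 7.63-fold lower, at 8.02 on Con_TSA and 10.96 on Con. CTHRC1, a secreted protein with collagen-like repeats, was 6.67-fold lower, and its 2 probes gave -2.68 and -2.79. The interferon-induced IFIT3 was 6.98-fold lower, with -2.74 and -2.87 on its 2 probes. PHLDA1, a protein with a pleckstrin homology-like domain, was the brightest of the 15 largest decreases, at 11.44 on Con_TSA and 13.79 on Con (5.10-fold lower, deposited difference -2.34). The mitotic kinase NEK6 was 5.96-fold lower, the muscle intermediate filament gene SYNC 6.52-fold lower, the RNA-binding regulator of translation CPEB2 5.58-fold lower and PIK3IP1, an inhibitor of phosphoinositide 3-kinase, 5.59-fold lower. Both probes agreed for the AMPK-related kinase NUAK1 (-2.04 and -2.37), the Wnt regulator DACT1 (-2.04 and -1.77) and the anti-apoptotic BCL2L1 (-1.61 and -2.40), which were 4.62-fold, 3.75-fold and 4.01-fold lower.

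Transcripts of the HDACs that TSA inhibits mostly lay within 1.5-fold. Of the 11 classical HDAC genes 9 were detected, and HDAC7 and HDAC10 were not. HDAC3, the catalytic subunit of the NCoR and SMRT corepressor complexes, was 2.28-fold higher, at 11.62 on Con_TSA and 10.43 on Con, with a deposited difference of 1.03. HDAC1, at 12.72 on Con_TSA and 12.51 on Con, and HDAC2, at 12.75 on Con_TSA and 12.55 on Con, were the brightest members and lay within 1.5-fold. HDAC6, the cytoplasmic tubulin deacetylase, was at 7.41 on Con_TSA and 7.88 on Con, also within 1.5-fold. HDAC9 was detected on Con alone and was at least 1.68-fold lower, but its deposited difference was -0.20.

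The enzymes and readers on the opposite side of acetylation leaned lower. Of 11 detected histone acetyltransferase genes 0 were higher and 4 (36.4%) lower, against 17.2% higher and 17.3% lower over all genes (median log2 difference -0.39). In the deposited values 0 were higher and 1 lower. The CBP gene CREBBP stood at 9.17 on Con_TSA and 10.79 on Con (3.07-fold lower, deposited difference -1.06), and its paralogue EP300 at 8.07 on Con_TSA and 8.90 on Con (1.78-fold lower). KAT2A was 1.56-fold lower and KAT5 at least 1.57-fold lower. HAT1, which acetylates newly made histone H4 before its deposition, was 1.49-fold higher and stayed under the threshold. Of 15 genes of bromodomain and related acetyl-lysine readers 2 were higher and 5 (33.3%) lower, and the deposited values gave 0 and 4. ZMYND8 was 4.79-fold lower with -2.16 and -2.37 on its 2 probes, BRPF3 2.45-fold lower and BAZ2B 1.80-fold lower, while BRPF1 was 1.76-fold higher and ATAD2 1.72-fold higher. Of 28 histone methyltransferase and demethylase genes 2 were higher and 7 (25%) lower. Of 25 SWI/SNF and CHD remodeller genes 2 were higher and 6 (24%) lower. These shares of lower genes were nearer to that over all genes. In the deposited values no member of the first of these lists passed 1.5-fold, and the second had 0 higher and 1 lower. The core SWI/SNF subunit SMARCB1 was 2.48-fold lower, at 8.83 on Con_TSA and 10.14 on Con.

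Histone genes were higher as a group. Of 80 histone genes on the array 27 were detected. Of these 17 (63.0%) were higher and 1 (3.70%) lower, against 17.2% and 17.3% over all genes. The median log2 difference of the 27 was 0.74, or 0.66 with undetected levels at their bounds, against -0.01 over all genes. In the deposited values 12 were past 1.5-fold higher and 1 lower. H2AC11, a replication-dependent H2A gene, was detected on Con_TSA alone, at 9.98 there and 6.62 on Con, and was at least 10.2-fold higher. H4C14 was 6.18-fold higher, at 10.03 on Con_TSA and 7.40 on Con. The linker histone gene H1-10 was 4.41-fold higher, at 11.04 on Con_TSA and 8.90 on Con. The increases extended over every histone class, with H2BC21 at 11.26 on Con_TSA and 9.92 on Con, H3-3B, which encodes the replacement histone H3.3, at 11.42 on Con_TSA and 9.90 on Con, and H2BC5 higher on both probes (1.26 and 1.47). The DNA damage variant gene H2AX was 1.90-fold higher. The brightest members were within 1.5-fold, H3-3A at 14.82 on Con_TSA and 14.72 on Con and H2AZ1 at 13.95 on Con_TSA and 14.23 on Con. The 1 lower member was MACROH2A2, a variant linked to silent chromatin, at 7.56 on Con_TSA and 9.55 on Con (3.99-fold lower). Histone genes of a class are close to identical in coding sequence, so a probe may read more than 1 of them.

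**Figure D3:**
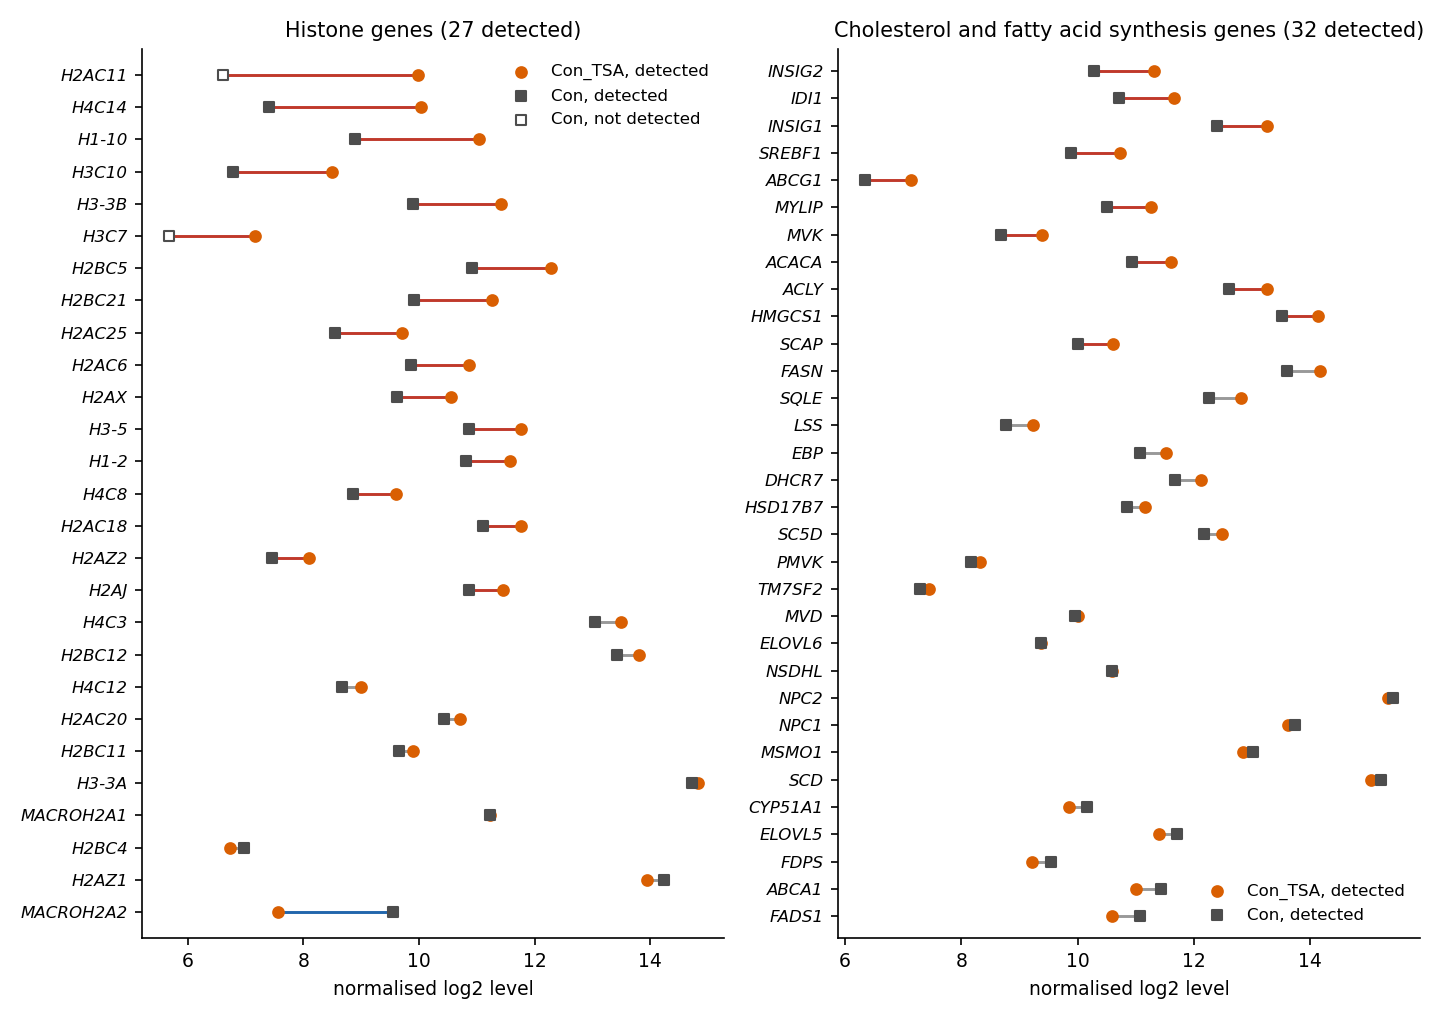
Normalised log2 levels (horizontal axis) of 27 detected histone genes (left) and 32 detected genes of cholesterol and fatty acid synthesis (right) are drawn for Con_TSA (orange circles) and Con (grey squares), with open symbols where the array did not detect the gene. Red lines join genes at least 1.5-fold higher in Con_TSA, 17 on the left and 11 on the right, a blue line the 1 lower histone gene, and grey lines genes within 1.5-fold.

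The sequence in front of the genes was examined for what higher and lower genes share. RefSeq promoters, from 250 bases before to 50 after the annotated start (GRCh38.p14), were found for 8035 of the 9677 genes. The sequence CCAAT, read on either strand, is the core of the box bound by the trimeric factor NF-Y, which is known to recruit acetyltransferases. It was present in the promoters of 45.7% of higher genes, 32.2% of lower genes, 37.7% of genes within 1.5-fold and 35.7% of all 27305 promoters in the table. Among genes also past 1.5-fold in the deposited values the shares were 50.4% for higher and 31.0% for lower genes. The order was the same at each level of expression, taken as the mean over all 4 arrays. The shares were 43.1% of higher and 32.4% of lower genes below a level of 8, 46.4% and 33.4% between 8 and 10, and 49.7% and 29.4% above 10. Without the histone genes, a choice made after the data were seen, the shares were 45.3% and 32.2%. At least 2 matches were present in 20.3% of higher, 9.66% of lower and 14.3% of the other genes.

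Other short sequences differed less or in the other direction. The GC box GGGCGG was present in 74.7% of higher, 64.8% of lower and 70.7% of the other genes, against 44.6% of all promoters. The AP-1 element TGACTCA was present in 1.58% of higher, 4.44% of lower and 3.16% of the other genes, against 4.92% of all promoters, and the TATA box TATAAA in 5.79%, 8.16% and 5.05%, against 11.95% of all promoters. The cAMP response element TGACGTCA was present in 3.91% of higher, 3.22% of lower and 3.43% of the other genes, against 1.98% of all promoters, and the E-box CACGTG in 11.1%, 9.81% and 10.7%, against 7.435% of all promoters. Median GC content was 66.3% for higher and 64.3% for lower genes. The length of the gene separated the groups little, with a median span of 30.3 kb for higher, 29.9 kb for lower and 29.3 kb for the other genes. A match describes these letters only and is not evidence that a factor was bound.

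Promoters are shown for 6 genes that were higher in Con_TSA and hold at least 2 copies of CCAAT, which is in capitals on whichever strand it lies (ATTGG is the same box on the other strand). They are the histone genes H2AC11 (GRCh38.p14 chr6:27132793-27133092, plus strand) and H2BC21 (chr1:149886633-149886932, minus strand), TUBB4A (chr19:6502799-6503098, minus strand), DACT3 (chr19:46661133-46661432, minus strand), HSPA1B (chr6:31827488-31827787, plus strand) and HSPA5 (chr9:125241294-125241593, minus strand), the endoplasmic reticulum chaperone BiP, which was 1.85-fold higher.
H2AC11: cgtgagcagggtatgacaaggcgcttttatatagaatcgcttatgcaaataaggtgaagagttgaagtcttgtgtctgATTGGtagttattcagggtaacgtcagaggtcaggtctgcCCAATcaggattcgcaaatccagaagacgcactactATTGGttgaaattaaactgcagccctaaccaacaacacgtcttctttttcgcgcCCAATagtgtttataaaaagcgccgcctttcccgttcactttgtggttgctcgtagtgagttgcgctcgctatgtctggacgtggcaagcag
H2BC21: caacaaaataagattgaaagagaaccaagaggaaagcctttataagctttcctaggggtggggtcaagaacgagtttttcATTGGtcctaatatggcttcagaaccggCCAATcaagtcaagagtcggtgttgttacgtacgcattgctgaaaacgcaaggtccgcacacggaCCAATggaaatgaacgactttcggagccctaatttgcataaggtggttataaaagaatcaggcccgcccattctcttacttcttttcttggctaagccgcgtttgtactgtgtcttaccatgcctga
TUBB4A: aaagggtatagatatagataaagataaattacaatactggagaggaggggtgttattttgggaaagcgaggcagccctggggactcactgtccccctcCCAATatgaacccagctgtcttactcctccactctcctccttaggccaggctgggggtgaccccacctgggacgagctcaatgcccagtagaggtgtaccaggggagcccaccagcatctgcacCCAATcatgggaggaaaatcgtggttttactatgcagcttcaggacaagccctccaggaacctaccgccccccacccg
DACT3: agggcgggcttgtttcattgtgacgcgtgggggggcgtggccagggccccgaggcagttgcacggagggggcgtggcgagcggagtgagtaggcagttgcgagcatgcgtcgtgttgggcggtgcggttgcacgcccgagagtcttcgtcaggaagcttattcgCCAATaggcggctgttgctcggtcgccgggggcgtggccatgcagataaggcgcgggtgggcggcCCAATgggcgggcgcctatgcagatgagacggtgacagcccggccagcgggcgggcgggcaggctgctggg
HSPA1B: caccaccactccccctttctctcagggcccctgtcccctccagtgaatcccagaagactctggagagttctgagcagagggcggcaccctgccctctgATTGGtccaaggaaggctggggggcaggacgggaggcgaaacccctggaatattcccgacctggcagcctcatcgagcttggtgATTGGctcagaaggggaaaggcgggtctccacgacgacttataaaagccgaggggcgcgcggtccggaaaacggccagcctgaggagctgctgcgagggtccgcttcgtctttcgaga
HSPA5: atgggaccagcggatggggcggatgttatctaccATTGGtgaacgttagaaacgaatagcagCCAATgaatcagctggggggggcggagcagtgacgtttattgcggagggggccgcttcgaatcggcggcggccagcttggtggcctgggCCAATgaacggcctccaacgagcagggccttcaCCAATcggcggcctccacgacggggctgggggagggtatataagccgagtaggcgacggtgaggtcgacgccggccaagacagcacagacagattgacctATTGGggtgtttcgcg
The copies number 4 in H2AC11, 3 in H2BC21, 2 each in TUBB4A, DACT3 and HSPA1B and 5 in HSPA5.

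The NF-κB feedback inhibitor NFKBIA and the NF-κB subunit NFKB1 were among the larger decreases. They hold no CCAAT in this window, while 32.2% of lower genes do. Capitals mark the NF-κB type elements GGACTTTCC and GGAATTTCC on either strand in NFKBIA (GRCh38.p14 chr14:35404700-35404999, minus strand) and NFKB1 (chr4:102501109-102501408, plus strand); these elements are present in 0.374% and 0.472% of all promoters.
NFKBIA: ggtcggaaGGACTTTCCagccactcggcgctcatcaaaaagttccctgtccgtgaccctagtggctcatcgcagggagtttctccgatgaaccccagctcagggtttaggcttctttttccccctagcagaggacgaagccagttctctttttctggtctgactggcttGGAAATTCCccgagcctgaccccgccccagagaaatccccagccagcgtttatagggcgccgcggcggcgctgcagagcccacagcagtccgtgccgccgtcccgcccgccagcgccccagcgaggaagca
NFKB1: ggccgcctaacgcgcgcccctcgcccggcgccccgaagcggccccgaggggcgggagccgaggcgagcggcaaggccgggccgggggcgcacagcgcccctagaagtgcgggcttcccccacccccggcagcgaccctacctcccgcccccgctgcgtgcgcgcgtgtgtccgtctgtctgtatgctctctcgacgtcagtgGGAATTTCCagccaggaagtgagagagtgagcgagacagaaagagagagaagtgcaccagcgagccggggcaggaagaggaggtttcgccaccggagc
NFKBIA stood at 8.12 on Con_TSA and 10.72 on Con, 6.06-fold lower with a deposited difference of -1.54. NFKB1 stood at 9.22 on Con_TSA and 11.43 on Con, 4.64-fold lower with a deposited difference of -1.59. GGACTTTCC was present in 0.226% of higher and 0.501% of lower genes, and GGAATTTCC in 0.376% and 0.573%, too few to compare.

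The genes known to respond to HDAC inhibitors behaved unequally. Of 14 detected 7 (50%) were higher, 1 (7.14%) was lower and 6 lay within 1.5-fold (median log2 difference 0.54). Over all genes 17.2% were higher and 17.3% lower. The lower member was the CDK inhibitor CDKN1C, detected on Con alone, with a log2 difference of -1.25 and a deposited difference of -0.14. The short-chain dehydrogenase DHRS2 was at 12.26 on Con_TSA and 10.99 on Con (2.41-fold higher), with 1.39 and 1.15 on its 2 probes. CDKN1A was at 10.23 on Con_TSA and 9.54 on Con (1.62-fold higher), with a deposited difference of 0.44. The testis-enriched HSP70 gene HSPA2, seen by 2 probes on Con_TSA alone, was at least 3.21-fold higher. GSN, KLF4 and TUBB3, also in this list, were at 10.09, 9.37 and 12.37 on Con_TSA and at 10.07, 9.66 and 12.30 on Con. The members were chosen in knowledge of how HDAC inhibitors act in other cells and of earlier results of these data, so the count is not independent evidence.

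Metallothioneins, which bind zinc and copper, were higher or level. Of the 4 detected, MT1X, MT1G, MT2A and MT3, all but MT2A were higher. With the zinc sensor MTF1 and the zinc transporter SLC30A1 the group had 4 of 6 genes higher (66.7%) and 0 lower. Over all genes the shares were 17.2% and 17.3%. The group median was 0.89, and the deposited values gave 2 higher and 0 lower. MT1X was among the brightest higher genes, at 14.76 on Con_TSA and 13.46 on Con (2.46-fold higher). The brain form MT3 was not detected on Con and was at least 4.67-fold higher, at 8.85 on Con_TSA. MT1G was 2.08-fold higher and MTF1, which drives these genes, 1.64-fold higher, while MT2A, at 14.41 on Con_TSA and 14.33 on Con, did not differ by 1.5-fold and neither did SLC30A1, at 9.04 on Con_TSA and 8.95 on Con. Probes of this family may read more than 1 member.

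The sterol pathway was shifted as a group by a small amount. Of 32 detected genes of cholesterol and fatty acid synthesis and its control 11 were higher and 0 lower. These were 34.4% and 0%, against 17.2% and 17.3% over all genes, and the deposited values gave 8 and 0. The median was 0.38. The control genes of the pathway were among the higher ones. SREBF1, which encodes the transcription factor SREBP1, was 1.81-fold higher (10.73 on Con_TSA and 9.88 on Con), its escort SCAP 1.52-fold higher, and INSIG1 and INSIG2, which retain SCAP in the endoplasmic reticulum, 1.82-fold and 2.06-fold higher. Among enzymes HMGCS1 stood at 14.13 on Con_TSA and 13.52 on Con (1.52-fold higher), IDI1 was 1.93-fold higher and ACLY 1.58-fold higher. The enzymes SQLE and FASN were both 1.47-fold higher, just under the threshold. At the other end FADS1 was at 10.59 on Con_TSA and 11.07 on Con, and SCD at 15.04 on Con_TSA and 15.22 on Con.

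Chaperones and stress genes divided. Of 62 detected heat shock proteins and cochaperones 15 were higher and 8 lower, 24.2% and 12.9%, against 17.2% and 17.3% over all genes. HSPA1A, a near-identical copy of HSPA1B that its probe may also read, was 3.76-fold higher, at 13.10 on Con_TSA and 11.19 on Con, the glucocorticoid receptor cochaperone FKBP5 2.39-fold higher and the cytosolic HSP90AA1 1.75-fold higher. Of 31 genes of the unfolded protein response and of ATF4 4 were higher and 7 lower, 12.9% and 22.6%, not far from the shares over all genes. HSPA5, at 11.56 on Con_TSA and 10.67 on Con, belongs to the higher ones. XBP1, a transcription factor of this response, was 3.07-fold lower (-1.49 and -1.74 on its 2 probes), and TRIB3 and PPP1R15A were 3.52-fold and 2.04-fold lower. Among 43 autophagy and lysosome genes 9 were higher and 2 lower, 20.9% and 4.65%, and the deposited values gave 8 and 0. MAP1LC3B, whose product coats autophagosomes, stood at 12.99 on Con_TSA and 12.07 on Con (1.89-fold higher), the protease ATG4C was 2.68-fold higher and the lysosomal sialidase NEU1 2.12-fold higher.

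Genes of G1 control differed in both directions. Among 22 such genes 6 were higher and 6 lower, 27.3% each, against 17.2% higher and 17.3% lower over all genes. Cyclin D1 (CCND1) was 2.03-fold lower, at 12.11 on Con_TSA and 13.13 on Con, and cyclin D3 (CCND3) was 3.44-fold higher, at 12.23 on Con_TSA and 10.45 on Con. The kinases CDK4 and CDK6 were 1.52-fold and 1.96-fold lower, and CDK2 and its partner CCNE1 were 2.81-fold and 2.56-fold higher. Among CDK inhibitors, the INK4 member CDKN2D was 4.33-fold higher, and CDKN1A was also higher, as given above. CDKN1B and CDKN1C were lower, with log2 differences of -0.77 and -1.25, and CDKN1C was detected on Con alone. Of 35 DNA replication genes 7 were higher and 3 lower, 20% and 8.57%, and the share of higher ones was near that over all genes. The median was 0.37, and the deposited values gave 2 higher and 0 lower. The sliding clamp PCNA was 2.03-fold higher (1.41 and 0.62 on its 2 probes). Of 34 mitosis genes 4 were higher and 2 lower, 11.8% and 5.88%, below the shares over all genes. Among 29 regulators of apoptosis 4 were higher and 6 lower, 13.8% and 20.7%, near the shares over all genes, with the apoptosome scaffold APAF1 2.36-fold higher and, besides BCL2L1, the death receptor adaptor FADD 2.45-fold lower.

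Some genes typical of other tissues were higher, others lower or level. Of 54 neuronal genes on the array 27 were detected, and the deposited values gave 2 higher and 1 lower. Here 9 were higher and 3 lower, 33.3% and 11.1%, against 17.2% and 17.3% over all genes. The lower ones were SCG5, a neuroendocrine secretory protein (2.43-fold lower), the presynaptic syntaxin STX1A (1.71-fold lower) and CRMP1 (1.59-fold lower). Synapsin 1 (SYN1) and tau (MAPT) were detected on Con_TSA alone, SYN1 at least 2.90-fold higher and MAPT at least 1.71-fold higher, and the synaptic vesicle fusion protein SNAP25 was at 8.61 on Con_TSA and 7.47 on Con (2.20-fold higher). Of 18 tubulins 6 were higher and 2 lower, 33.3% and 11.1%. TUBB4A and TUBB2B, isotypes of neurons, were 7.47-fold and 1.71-fold higher, the neuronal TUBB3 was level, as given above, and the abundant TUBB was 1.57-fold lower (12.48 on Con_TSA and 13.13 on Con). Notch pathway genes were 6 higher and 1 lower of 14, 42.9% and 7.14%. The target transcription factors HEY1 and HEY2 were 2.73-fold and 1.79-fold higher and the ligand DLL3 2.77-fold higher. Of the 6 detected haematopoietic genes LCP1, CD68 and CD3D lay within 1.5-fold, the last at 8.50 on Con_TSA and 8.52 on Con, while the globin HBA1 and CORO1A were detected on Con_TSA alone, at 8.78 and 8.34, and CD34 on Con alone, at 7.10.

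**Figure D4:**
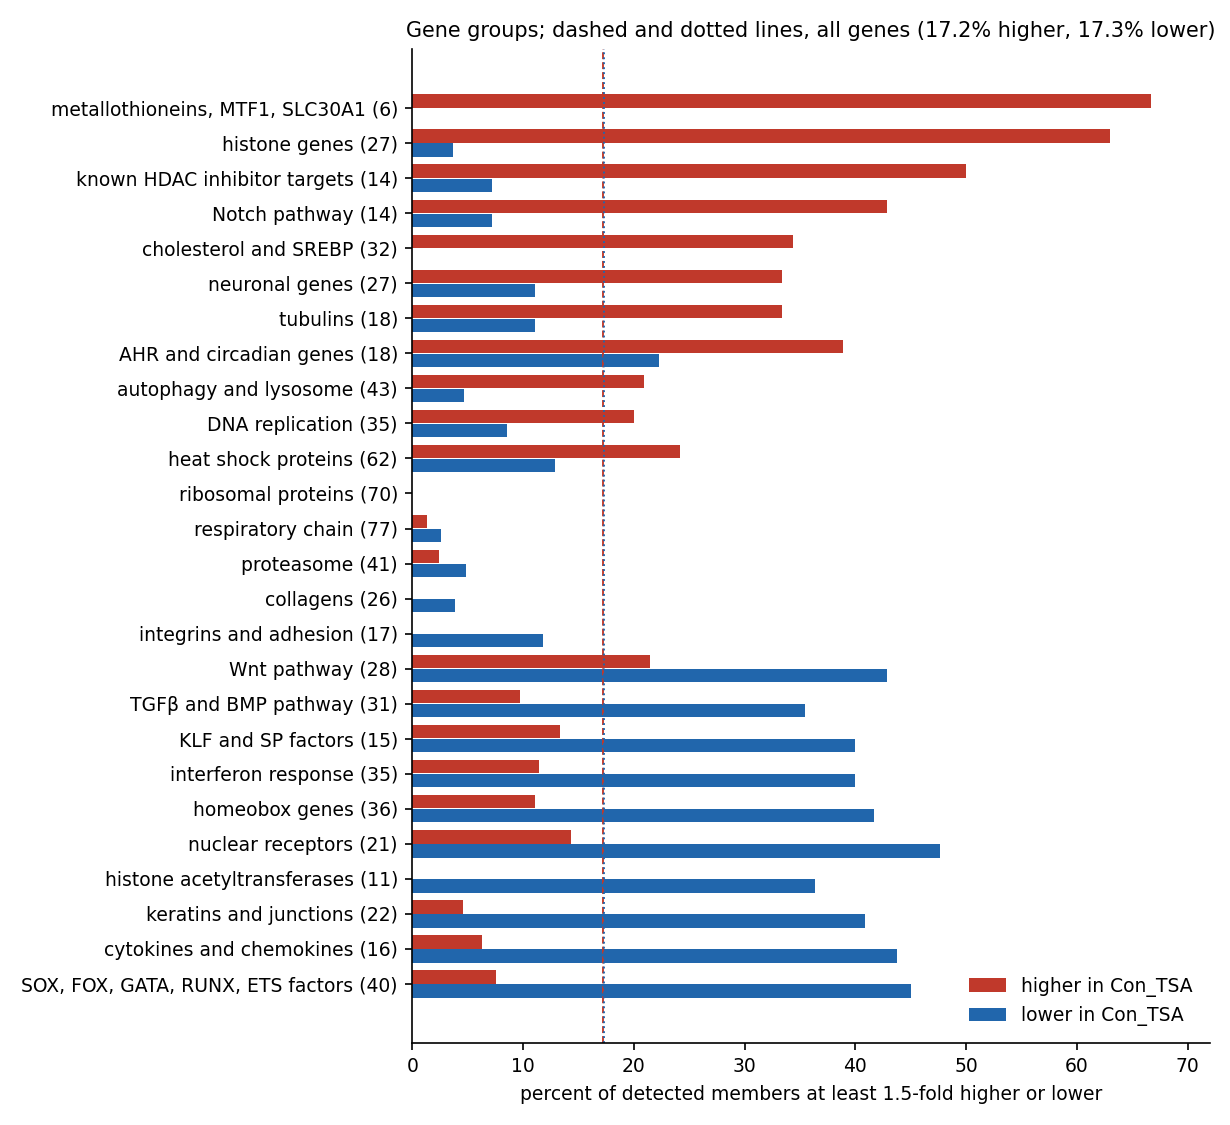
Bars give the percent of the detected members of 26 gene groups that were at least 1.5-fold higher (red) or lower (blue) in Con_TSA than in Con, with the number of detected members in brackets. The vertical lines mark 17.2% higher and 17.3% lower over all genes; metallothioneins with MTF1 and SLC30A1 reach 66.7% higher, histone genes 63.0% higher, and nuclear receptors and SOX, FOX and related factors 47.6% and 45.0% lower.

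Transcription factors of development were among the groups with most lower genes. Of 40 detected genes of the SOX, FOX, GATA, RUNX, T-box, ETS, TWIST and SNAI families 3 were higher and 18 lower (median -0.56). These were 7.5% and 45.0%, against 17.2% and 17.3% over all genes, and the deposited values gave 1 and 8. RUNX2, which drives hypertrophy of chondrocytes and bone formation, was 3.59-fold lower, at 6.69 on Con_TSA and 8.53 on Con, although its deposited difference was -0.53. The ETS factors ELF1 and ELF4 were 3.83-fold and 4.15-fold lower, FOXA2 3.26-fold lower and FOXF2 at least 4.51-fold lower. SNAI2, a factor of mesenchymal cells, was 1.84-fold lower with -0.95 and -0.81 on its 2 probes. SOX9, at 10.01 on Con_TSA and 10.32 on Con, stayed within 1.5-fold, and SOX11 was higher by 1.58 on the log2 scale. Of 36 homeobox genes 4 were higher and 15 lower, 11.1% and 41.7% (median -0.50). Besides IRX3 and HOXB2, the repressor ZEB2 was at least 3.99-fold lower, TGIF1 3.75-fold lower (-1.85 and -1.96 on its 2 probes) and HOXC6 2.93-fold lower, and the higher members LHX2 and HOXD1 were 2.28-fold and at least 2.49-fold higher.

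Nuclear receptors, KLF and SP factors and ZNF genes leaned the same way, and 2 other families did not. Of 21 nuclear receptors and retinoid genes 3 were higher and 10 lower, 14.3% and 47.6%, against 17.2% and 17.3% over all genes. RXRA was at 9.65 on Con_TSA and 10.60 on Con (1.94-fold lower). The fat cell regulator PPARG was 1.59-fold lower, while PPARD was 2.14-fold higher. Only 1 of the 21 genes was lower by 1.5-fold in the deposited values. Of 15 KLF and SP factors 2 were higher and 6 lower, 13.3% and 40%, and the deposited values gave 0 and 1. KLF6 led the lower ones, at 10.69 on Con_TSA and 12.82 on Con (4.36-fold lower, deposited difference -1.90). Of 243 ZNF zinc finger genes 33 were higher and 71 lower, 13.6% and 29.2%, with 1 and 7 past 1.5-fold in the deposited values. The related ZSCAN, ZKSCAN and ZBTB genes were 9 higher and 10 lower of 36, 25% and 27.8%, and 5 and 1 in the deposited values. MYC was 3.09-fold lower (-1.79 and -1.46 on its 2 probes) and its antagonist MXD1 2.83-fold higher. Of 10 network members 3 were higher and 3 lower, 30% each.

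Immediate early genes split within the AP-1 family. Of 20 detected AP-1 and immediate early genes 7 were higher and 8 lower, 35% and 40%, against 17.2% and 17.3% over all genes. FOS was at 9.21 on Con_TSA and 6.93 on Con (4.84-fold higher), FOSB was at least 2.50-fold higher and EGR1, at 10.45 on Con_TSA and 8.73 on Con, was 3.29-fold higher. FOSL1 was 4.31-fold lower, JUN 1.65-fold lower and JUNB 1.63-fold lower. Of 23 feedback inhibitors of MAP kinase signalling 3 were higher and 6 lower, with the phosphatase DUSP1 1.80-fold higher and SPRY2 3.07-fold lower.

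Genes of developmental signalling were lower in part. Of 31 genes of TGFβ and BMP signalling 3 were higher and 11 lower, 9.68% and 35.5%, against 17.2% and 17.3% over all genes. The BMP antagonist noggin (NOG) was detected on Con alone and was at least 3.14-fold lower, the receptor TGFBR2 was at 10.66 on Con_TSA and 11.80 on Con (2.21-fold lower, -1.22 and -1.06 on its 2 probes), and the ligands TGFB2, TGFB3 and BMP4 were at least 2.58-fold, 2.60-fold and 1.93-fold lower. TGFBI, a matrix protein named for its response to TGFβ, was 3.67-fold lower, and CCN2, the connective tissue growth factor, was 2.58-fold higher with 1.41 and 1.33 on its 2 probes. Of 28 Wnt pathway genes 6 were higher and 12 lower, 21.4% and 42.9%. The ligands WNT5A and WNT5B were 2.41-fold and 3.91-fold lower and the transcription factor LEF1 2.81-fold lower, while the receptors FZD9, detected on Con_TSA alone, and FZD4 were at least 7.28-fold and 2.24-fold higher.

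Without IL-1 most inflammatory genes were dim, and the cytokines and chemokines in range leaned lower. Of 67 cytokine and chemokine genes on the array 16 were detected. Of these 7 (43.8%) were lower and 1 (6.25%), the growth factor HBEGF (1.93-fold higher), was higher, against 17.3% and 17.2% over all genes. The monocyte attractants CCL2, CCL7 and CCL8 were detected on Con alone, at 7.34, 7.85 and 7.32, which made CCL2 at least 1.64-fold lower, CCL7 at least 2.34-fold lower and CCL8 at least 1.62-fold lower, and their deposited differences were -0.30, -0.32 and -0.17. VEGFC, a growth factor of lymphatic vessels, was 4.36-fold lower, at 8.44 on Con_TSA and 10.56 on Con. IL6 was not detected on either array, and CXCL8 was at 6.94 on Con_TSA and 7.49 on Con, within 1.5-fold. Of 14 NF-κB subunits and feedback genes 3 were higher and 5 lower, 21.4% and 35.7%, and the deposited values gave 0 and 3. The 5 lower ones were NFKBIA, NFKB1, the nuclear IκB protein BCL3 (5.17-fold lower), TNIP1 (2.01-fold lower) and TNIP2 (at least 1.72-fold lower). The higher ones were the second precursor subunit NFKB2 (2.22-fold higher) and the IκB genes NFKBIE and NFKBIB. NFKBIE was detected on Con_TSA alone, and the log2 differences of these IκB genes were 0.73 and 0.59. Of 17 genes of IL-1 signalling 4 were higher and 2 lower, 23.5% and 11.8%, and the deposited values gave 0 and 1.

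Of 65 MMP, ADAM, ADAMTS and TIMP genes on the array, which make and restrain the proteases of the matrix, 22 were detected. MMP1 was not detected, MMP3 was at 8.36 on Con_TSA and 8.38 on Con, and the collagenase MMP13 was detected on Con_TSA alone, at least 1.95-fold higher, with a deposited difference of 0.20. Of the detected genes 4 were higher and 3 lower, 18.2% and 13.6%, near the shares over all genes. The inhibitor TIMP3 was at 10.84 on Con_TSA and 9.70 on Con (2.21-fold higher). The plasminogen activators diverged, with the tissue form PLAT at 8.77 on Con_TSA and 6.93 on Con (3.57-fold higher), and the urokinase PLAU, detected on Con alone, at least 2.87-fold lower.

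Interferon response genes leaned lower, with members in both directions even within the IFIT family of antiviral proteins. Of 35 detected 4 were higher and 14 lower, 11.4% and 40%, against 17.2% and 17.3% over all genes. Their median was -0.32, and the deposited values gave 2 higher and 3 lower. IFIT1 was at 10.38 on Con_TSA and 8.71 on Con (3.17-fold higher, deposited difference 1.07), whereas IFIT2 was at least 3.33-fold lower and IFIT3 6.98-fold lower. HERC5, a ligase for ISG15, was at 11.02 on Con_TSA and 9.30 on Con (3.31-fold higher), and ISG15 itself was 1.73-fold higher. IRF9, a subunit of the interferon-activated factor ISGF3, was 3.57-fold lower, at 8.79 on Con_TSA and 10.62 on Con, and IRF1 was 1.97-fold lower.

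Several large groups lay within 1.5-fold almost throughout. None of 70 ribosomal protein genes was higher or lower, of 77 respiratory chain genes 1 was higher and 2 were lower, and of 41 proteasome genes 1 was higher and 2 were lower. Of 12 genes in common use as references none passed 1.5-fold; ACTB was at 15.49 on Con_TSA and 15.50 on Con, and GAPDH at 13.98 on Con_TSA and 14.06 on Con. Calls were rarer among bright genes in general, as given above. Collagens were also level, since of 26 detected collagens and collagen-modifying genes only the collagen chaperone SERPINH1 was lower (1.94-fold lower), and COL1A1 was at 12.77 on Con_TSA and 13.07 on Con. Other matrix genes were divided, with 6 higher and 7 lower of 38 glycoproteins and proteoglycans, shares near those over all genes. The laminin chain LAMB1 and CCN4 were 1.62-fold and 3.06-fold lower, and the thrombospondin THBS2 and the syndecan SDC4 1.59-fold and 2.48-fold higher. Of 17 integrins and adhesion genes 0 were higher and 2 lower, namely the leukocyte adhesion receptor ICAM1 (at least 2.03-fold lower) and the cadherin CDH11 (2.08-fold lower). Of 22 keratins and other intermediate filament and junction genes 1 was higher and 9 lower. These were 4.55% and 40.9%, against 17.2% and 17.3% over all genes. KRT80 was 3.53-fold lower (-2.27 and -1.37 on its 2 probes) and KRT18 1.89-fold lower.

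The second pair of arrays, TSA with IL-1 against IL-1, shares no array with the first, and was normalised together with it. Of the 1660 genes higher in Con_TSA than in Con 75.8% were also higher in IL1_TSA than in IL1, against 20.6% of all 9677 genes, and of the 1674 lower genes 61.5% were also lower, against 17.2%. TUBB4A had a log2 difference of 4.16 in that pair, DACT3 3.38, H2AC11 3.37, STC1 2.35 and HSPA1B 1.51, and HOXB2 -3.56, CEBPD -2.49, IRX3 -2.14 and KLF6 -1.87. Of the 27 histone genes 15 were higher and 1 lower in the second pair, with a median of 0.74, and of the 32 sterol genes 8 and 3, with a median of 0.17. Some groups that leaned lower without IL-1 were more even there. ZNF genes were 51 higher and 50 lower, Wnt pathway genes 6 and 7, nuclear receptors 4 and 6 and KLF and SP factors 2 and 3. Homeobox genes, 5 and 13, and SOX, FOX and related factors, 5 and 16, again leaned lower. The metallothionein group had a median of 0.12 there, against 0.89 without IL-1. The second pair is not a replicate, since its cells also received IL-1.

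**Figure D5:**
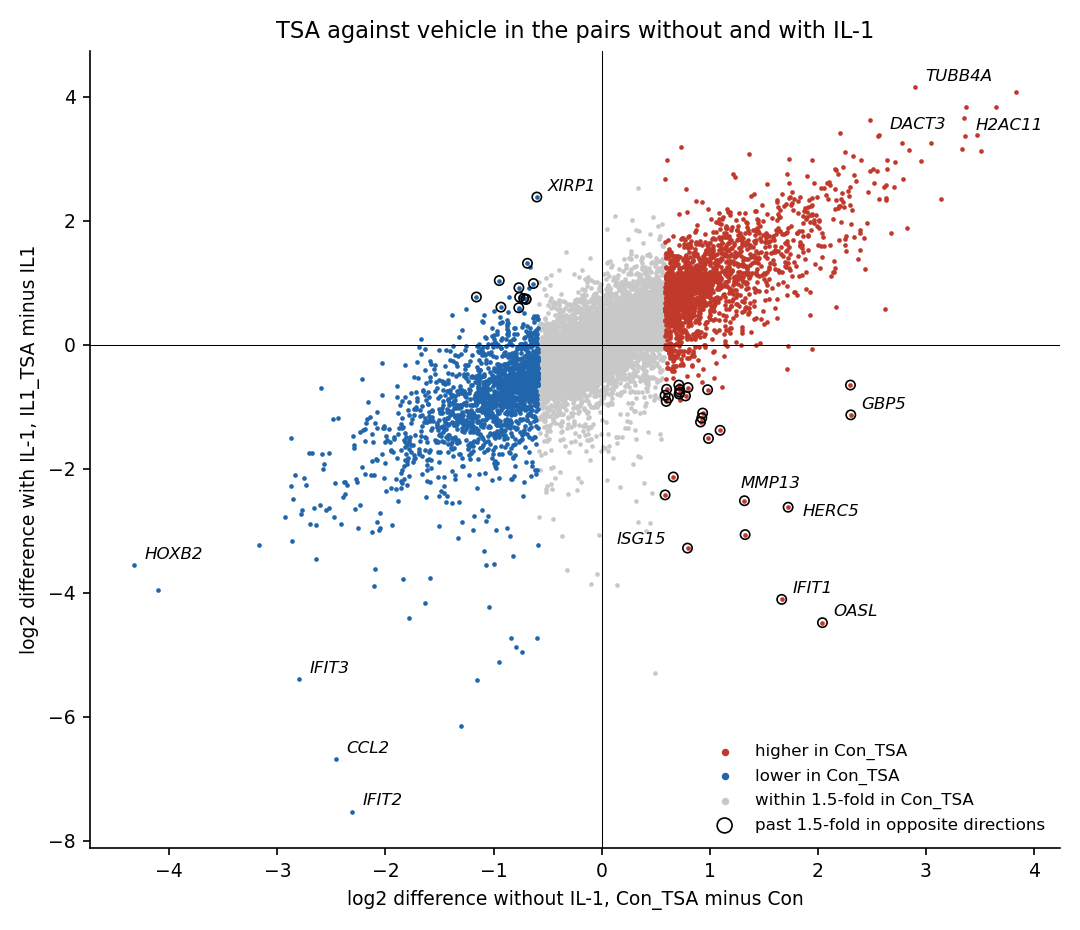
The log2 difference between Con_TSA and Con (horizontal axis) is plotted against that between IL1_TSA and IL1 (vertical axis) for 9677 genes, in red and blue where at least 1.5-fold higher or lower in Con_TSA, with rings round 38 genes past 1.5-fold in opposite directions. IFIT1, OASL, HERC5, ISG15 and GBP5 lie at lower right, higher with TSA alone and lower with TSA in the IL-1 pair.

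Most called interferon response genes were lower in both pairs, and a few, with some other genes, stood in opposite directions. The interferon response list had 0 genes higher and 34 lower in the second pair, with a median of -3.41, against 4 higher and 14 lower without IL-1. In all, 26 genes were higher in Con_TSA than in Con but lower in IL1_TSA than in IL1, and 12 were the reverse. Of these 38 genes 23 were detected on all 4 arrays, and for the other 15 at least 1 of the levels was not above background. IFIT1 differed by 1.67 without IL-1 and -4.11 with it, OASL by 2.04 and -4.48, HERC5 by 1.73 and -2.62, GBP5 by 2.31 and -1.13 and MMP13 by 1.32 and -2.52. OASL and MMP13 were not detected on Con, so that without IL-1 only bounds are known, at least 2.04-fold higher for OASL and at least 1.95-fold higher for MMP13. In the other direction XIRP1, chosen after its value was seen, differed by -0.60 without IL-1 and 2.38 with it. IFIT1 had similar levels on both TSA arrays, 10.38 on Con_TSA and 10.82 on IL1_TSA, and unlike levels on the vehicle arrays, 8.71 on Con and 14.93 on IL1. Whether the effect of TSA differs between the pairs was not tested.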

How the data were processed

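Total RNA of 4 SW1353 cultures, 1 per condition, was hybridised by the authors to 1-colour Illumina HT-12 V4 arrays. The authors deposited the probe intensities without normalisation, a detection p-value for each probe and array, and log2 values that they had variance stabilised and normalised by robust splines with lumi, for which the sources used here state no version. The intensities of all 4 arrays were background corrected and quantile normalised here with the neqc function of limma 3.58.1 (R 4.3.3), with an offset of 16, and further steps used Python 3.11.15 with pandas 2.3.3, numpy 2.4.6 and matplotlib 3.10.9. The annotation named 27565 of 48784 probes with 1 gene, 13 with several, and did not list 21206; 27528 matched RefSeq. Probes that reached a detection p-value below 0.01 on Con_TSA or on Con were kept (14259, of which 12291 were named) and averaged per gene.

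A log2 difference is Con_TSA minus Con. An increase or decrease of at least 1.5-fold with a detected probe on the brighter array was called higher or lower, with no test, since each condition was 1 array. Where the dimmer array did not detect a gene, or detected only some of its probes with a mean level under 6.63, the fold is a lower bound. The level on the dimmer array was then set to the higher of 6.63, the lowest level among detected probes, and the measured level. Promoters were searched on both strands for the 8 short sequences named in the text.

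The genes, gene lists and comparisons were chosen with earlier results of these data known. Named genes were the 15 largest increases and decreases detected on both arrays and past 1.5-fold with the deposited values, the 10 largest among genes whose several probes all passed 1.5-fold, the 10 largest bounds, up to 5 called members of each list in each direction, up to 4 bright members of lists that did not differ, and HDAC1 to HDAC11, CDKN1A, MMP1, MMP3, MMP13, IL6, CXCL8, NFKBIA, ACTB and GAPDH. Not all of these are printed, and other genes printed beside them were chosen after their values were seen. The alternatives were the deposited values, no background correction, median scaling, neqc on Con_TSA and Con alone, an offset of 50, detection on both arrays, a detection p-value of 0.05, the brightest probe of a gene and a 2-fold threshold.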

Additional observations from a re-analysis of the deposited data

Results flagged for a closer look

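A total of 38 genes lay past 1.5-fold in opposite directions in Con_TSA against Con and in IL1_TSA against IL1, each pair being 1 array against 1. The difference between the pairs was not tested, because no condition was replicated. Of the 38 genes 23 were detected on all 4 arrays. The log2 difference between Con_TSA and Con was 1.67 for IFIT1, 1.73 for HERC5, 2.04 for OASL, 2.31 for GBP5 and 0.79 for ISG15, and between IL1_TSA and IL1 it was -4.11, -2.62, -4.48, -1.13 and -3.28. TRIM25, the ligase that activates the RNA sensor RIG-I, had 0.80 and -0.69. The collagenase MMP13 had 1.32 without IL-1 and -2.52 with it and GCH1, the first enzyme of tetrahydrobiopterin synthesis, had 0.59 and -2.42. For IFIT1, HERC5, GBP5, NCOA7 (1.10 without IL-1 and -1.38 with it) and TRIM25 the deposited values also passed 1.5-fold in both pairs. OASL and MMP13 were not detected on Con, and OASL was at least 2.04-fold higher and MMP13 at least 1.95-fold higher in Con_TSA, both as bounds. The other direction was shown by XIRP1, an actin-binding protein of muscle, at -0.60 without IL-1 and 2.38 with it, and by MAP7D2 at -0.77 and 0.92.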

How the results depend on the processing

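All values rest on 1 array per condition and, for most genes, on 1 probe, and low signal over background limits the dim genes, among which calls were most frequent. No paired analysis was possible because each condition was 1 array. With the deposited values 517 genes were higher and 403 lower, and at 2-fold 700 were higher and 727 lower. Under the other alternatives (no background correction, median scaling, 2 arrays alone, an offset of 50, detection on both arrays, detection p under 0.05, the brightest probe) higher genes numbered 1152 to 2069 and lower genes 1169 to 2056. Median scaling moved the median over all genes to 0.03 and the higher share of all calls to 54.4%, against 49.8%, and the deposited values gave 56.2%. With detection p under 0.05 the share of genes whose probes all lay on 1 side of 0 was 71.0%. Higher genes that were also higher in the IL-1 pair made up 72.5% with the deposited values, 73.0% with median scaling, 78.0% with detection on both arrays and 69.0% with detection p under 0.05, and lower genes that were also lower 58.3%, 66.9%, 64.6% and 56.8%. The share of higher genes with CCAAT was 50.4% with the deposited values and 48.5% at 2-fold. Of 30 lists whose counts of higher and lower genes differed by at least 3, 28 to 30 kept the direction. With the deposited values histone methyltransferases and demethylases had 0 higher and 0 lower and the circadian and AHR list 2 and 2. At 2-fold, higher minus lower was -1 for DNA replication and -1 for RNA polymerases and Mediator. All 25 medians of at least 0.2 in size kept their sign under the other alternatives, since a median does not depend on the fold threshold. Of 194 genes named here and called higher or lower, all with a value kept their sign under each alternative of normalisation, detection or probe choice. With the deposited values 130 kept the call, without background correction 181, with detection on both arrays 160 of 162 with a value, and under the others 189 to 192. The cause of these shifts was not tested.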

Other observations

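Genes of the circadian clock and the aryl hydrocarbon receptor were divided. Of 18 detected 7 were higher and 4 lower in Con_TSA than in Con, 38.9% and 22.2%, while the deposited values gave 2 and 2. The clock output factor DBP was at least 2.36-fold higher, at 7.87 on Con_TSA and 6.03 on Con, the repressors CIART, CRY1 and CRY2 were at least 2.14-fold, 2.11-fold and 2.37-fold higher, and BMAL1 was 1.57-fold higher. Besides ARNT2 the lower members were BHLHE40 (2.66-fold lower), NR1D2 (2.10-fold lower) and RORA (1.79-fold lower). Of 182 detected solute carriers 41 were higher and 29 lower, or 22.5% and 15.9%, against 17.2% and 17.3% over all genes. Besides SLC7A2, the glucose transporter SLC2A3 stood at 13.94 on Con_TSA and 12.23 on Con (3.27-fold higher, deposited difference 1.74), and its close paralogue SLC2A14, which its probe may also read, was at least 3.21-fold higher.

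Among genes of transcription and splicing, of 96 genes of the RNA polymerases, general factors and Mediator 22 were higher and 19 lower, 22.9% and 19.8%, near the 17.2% and 17.3% over all genes. The largest subunit of RNA polymerase II, POLR2A, was 2.12-fold lower, at 10.31 on Con_TSA and 11.39 on Con, and its elongation kinase CDK9 1.95-fold lower, while the initiation factor GTF2B was 2.49-fold higher, the polymerase III subunit POLR3K 2.42-fold higher and the shared subunit POLR2L 2.22-fold higher. Of 76 splicing factors 6 were higher and 13 lower, and the deposited values gave 2 and 8. The share of higher ones, 7.89%, was below that over all genes, and the share of lower ones, 17.1%, near it. The lower ones included the SR proteins SRSF1, SRSF4, SRSF5, SRSF7 and SRSF8 (1.77-fold, 3.16-fold, 2.15-fold, 1.91-fold and 3.17-fold lower) and RBM39 (2.66-fold lower), and the higher ones PRPF6 (1.66-fold higher).

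Of the 14259 probes detected on Con_TSA or Con, 1968 had no gene in the annotation and entered none of the counts by gene. Of these 18.5% were at least 1.5-fold higher and 14.1% lower in Con_TSA than in Con.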
